A study of Homo sapiens with 22 samples.

Results

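The subject of this report is a set of 526 transcript clusters with a high signal in JHOC9 cells and a lower one in JHOC5 cells, out of 65526 clusters on the array. JHOC9 and JHOC5 are established human cell lines of ovarian clear cell carcinoma. A transcript cluster is the array's unit for 1 transcribed region, and its signal is the summary of the probes placed in that region. Members were chosen on the NT control arrays. On the log2 scale, the mean of the 5 JHOC9 NT arrays had to be at least 6 and at least 1.5 above the mean of the 5 JHOC5 NT arrays, and the lowest JHOC9 NT array had to lie above the highest JHOC5 NT array. Clusters whose ID carries the code of the X or Y chromosome were left out. By the array maker's naming, this code is given by the pair of characters that follow TC in an ID.

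Ovarian clear cell carcinoma is an epithelial tumour type often associated with endometriosis. Cell lines from different tumours of one type commonly differ in the RNA levels of many genes. SPINK1 encodes a secreted inhibitor of trypsin, and IL-6 is an inflammatory cytokine that signals through the STAT3 pathway. A knockdown virus delivers a short RNA that lowers the transcript of its target gene.

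The 22 arrays form 6 groups. JHOC9 and JHOC5 cells in 35 mm dishes were infected with NT control lentivirus (5 arrays in each line), with the SPINK1 KD #9 lentivirus (3 arrays in each line) or with the IL-6 KD #58 lentivirus (3 arrays in each line). Each target gene had 1 virus. Both lines were kept in DMEM/F12 medium, JHOC9 with 20% and JHOC5 with 10% fetal bovine serum, so line and serum cannot be told apart. The titles number the NT arrays of each line as separate experiments (A to E), whereas knockdown arrays carry just a letter. Whether knockdown arrays of a group are separate cultures is not stated. The p-values therefore reflect only the scatter of arrays within groups, which may be technical. For each cluster this scatter was pooled over all groups of a fit, so JHOC5 arrays also set the SE of comparisons within JHOC9. In RNA from whole cultures, fewer cells with a transcript and less of it per cell cannot be told apart.

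The files give cluster IDs with no gene name or position beside them. Members are therefore given by ID, no sequence is shown, and neither tissue markers nor the knocked-down transcripts were analysed here. Median log2 signals of the arrays lay between 4.78 and 4.95, which sets the scale for the levels below. The number of arrays limits the precision of every value.

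The members were 0.803% of all clusters. Of the 62840 clusters without the X and Y codes, 19145 had a JHOC9 NT mean of at least 6, and members made up 2.75% of these. All 526 clusters that met the level and the difference limits also had separate NT arrays, so the last condition removed none. The same rule turned around gave 499 clusters mainly in JHOC5. The values of the clusters nearest the limits were as follows. TC13000804.hg.1 and TC21000200.hg.1 were just inside the level limit, with JHOC9 NT means of 6.001 and 6.01. TC10000182.hg.1 and TC17001251.hg.1 were just outside it, with means of 5.9999 and 5.98. At the difference limit, TC08002446.hg.1 and TC11001098.hg.1 were just inside with 1.504, and TC14002098.hg.1 and TC06001514.hg.1 just outside with 1.4998 and 1.498.

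Not all members were separate measurements. Some clusters on this array carry the same values on every array (within 1e-05), and 62 members repeated the values of another, which left 464 distinct patterns. These repeats formed 12 families with 74 members. In 5 families, with 38 members, the IDs carried more than 1 chromosome code. The largest family held 20 clusters, 8 with code 2, 6 with code 14, 3 with code 22 and 1 each with codes 15, 18 and 21. One of them, TC02000821.hg.1, had log2 signals of 8.09, 7.41, 7.92, 7.46 and 7.57 on JHOC9 NT arrays a to e and of 5.27, 5.94, 6.25, 5.66 and 5.29 on the JHOC5 NT arrays. The second family held 12 clusters, all with code 19, at 10.19 in JHOC9 NT and 7.94 in JHOC5 NT. Over the 12 families, JHOC9 NT means ran from 6.64 to 10.19 and NT differences from 1.74 to 3.08. Where IDs with several codes hold 1 value, the signal cannot be placed on 1 chromosome.

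By chromosome code, members were most frequent under code 19, with 59 of 2674 clusters (2.21%) against 0.837% over all codes without X and Y. Counting each pattern once, code 19 kept 44 of 2655 (1.66%) against 0.75% overall. Among distinct clusters with a JHOC9 NT mean of at least 6, the share was 3.26% for code 19 and 2.50% over all these codes. By this count code 19 was not first: codes 13 (6.77%), 4 (4.26%) and 11 (3.30%) lay above it. Code 13 held 21 of 1715 clusters (1.22%), which were 6.77% of its 310 bright clusters. Codes 2 and 14 owed much of their counts to repeats: code 2 went from 56 members to 35 distinct ones, and code 14 from 23 to 12. Of codes 1 to 22, code 10 had the lowest share, with 13 members (0.444%), and none of the 22 clusters with the mitochondrial code M was a member.

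**Figure D1:**
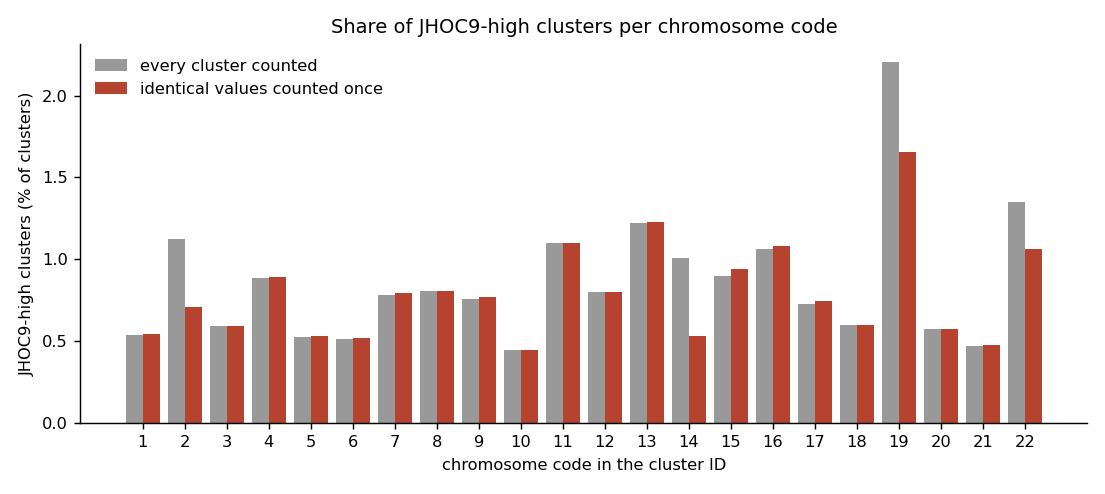
Share of clusters that were members (percent, vertical axis) by chromosome code in the ID (horizontal axis), counting all clusters and counting clusters with equal values once. Code 19 is highest in both counts, at 2.21% and 1.66%, and of the 22 codes drawn code 10 has the lowest share, at 0.444% with every cluster counted.

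Some members stood next to each other in ID number. Runs of consecutive numbers within a code numbered 41 and held 117 members, and 9 runs were longer than 2. Runs were not counted among all clusters or bright ones, so whether members stood together more often was not tested. The longest had 11 members under code 19, but only 2 distinct patterns. In 33 runs, with 68 members, no values were repeated. The run from TC02001398.hg.1 to TC02001400.hg.1 was one of these, with JHOC9 NT means of 10.88, 12.25 and 7.76 and JHOC5 NT means of 6.49, 6.18 and 5.99. Within this run the members differed widely in how far JHOC5 lay below JHOC9.

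Levels of the members spanned a wide range in both lines. The median member had a JHOC9 NT mean of 8.02, with quartiles of 7.28 and 9.14 and a highest value of 12.78. In JHOC5 NT the median was 5.68, with quartiles of 4.88 and 6.62 and a range of 2.63 to 9.30. In that line, 119 of 526 members (22.6%) had a JHOC5 NT mean under the lowest array median of 4.78, while 196 (37.3%) lay at 6 or more and 26 at 8 or more. The files hold no detection measure, so these levels do not say whether a transcript was present. By level, the NT difference had a median of 1.88 in the 92 members with a JHOC9 NT mean of 6 to 7, 2.05 in the 169 from 7 to 8, 2.36 in the 204 from 8 to 10 and 2.91 in the 61 above 10. By size, 192 members differed by 1.5 to 2, 211 by 2 to 3, 78 by 3 to 4, 23 by 4 to 5 and 22 by more than 5. These NT values chose the members and are given as a description.

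**Figure D2:**
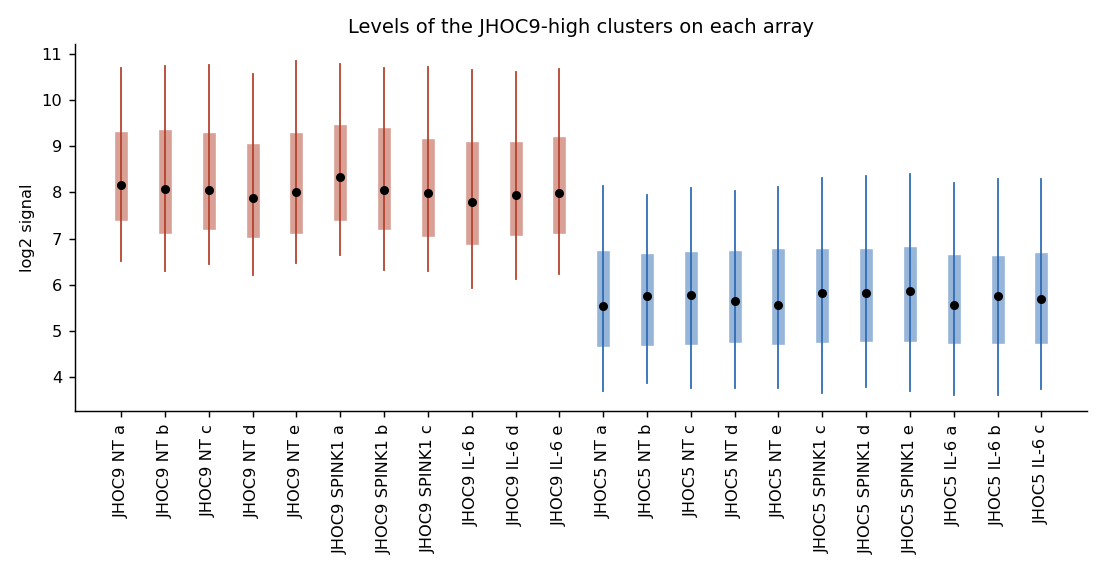
Log2 signal of the members (vertical axis) on each of the 22 arrays (horizontal axis), grouped by line and virus. Points are medians, boxes span the quartiles, and thin lines run from the 5th to the 95th percentile of the members. Array medians lie between 7.78 and 8.33 in JHOC9 and between 5.54 and 5.87 in JHOC5.

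In every group, members had a higher median SD between arrays than all bright clusters, which here include the members. Repeats were counted each time. The median SD over the 5 JHOC9 NT arrays was 0.219 for members and 0.112 for all clusters with a JHOC9 NT mean of at least 6, and 91.3% of members exceeded the latter value. In the JHOC9 SPINK1 and IL-6 arrays the median SDs of members were 0.187 and 0.209, against 0.107 and 0.127. In JHOC5 they were 0.144, 0.131 and 0.160 in the NT, SPINK1 and IL-6 arrays, against 0.0964, 0.0926 and 0.130. On some JHOC9 arrays most members moved the same way, in counts that include the repeats. Splits were nearly even on NT arrays b and e (259 below and 267 above on each) and on IL-6 array d (282 below and 244 above). On NT array d, 456 of 526 members lay below their group mean, with a median deviation of -0.16, while other bright clusters had a median of -0.01. On SPINK1 array a, 429 members lay above the mean (median 0.13), and on SPINK1 array c 408 lay below it (median -0.11). IL-6 array b had 357 below (median -0.09) and IL-6 array e 344 above (median 0.09). These shared shifts are of the same order as the median group differences reported below, and their part in those differences was not tested.

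Whether the line difference held outside the NT arrays was asked in the 12 knockdown arrays, which had no part in choosing members. The median difference between JHOC9 and JHOC5 was 2.13 in the SPINK1 arrays (4.39-fold) and 1.97 in the IL-6 arrays (3.92-fold), beside 2.15 in the NT arrays (4.44-fold). Over all clusters the medians were -0.0033 and 0.0758. All 526 members were called higher in JHOC9 in both comparisons (limma, adjusted p under 0.05), where 10.6% of all clusters were called higher in the SPINK1 arrays and 11.5% in the IL-6 arrays. Among clusters with a JHOC9 NT mean of at least 6, 24.9% and 22.3% were called higher. A difference of at least 1.5 was again met by 466 members in the SPINK1 arrays and 465 in the IL-6 arrays, and a difference of at least 1 by 524 and 525. The difference was smaller than in the NT arrays for 303 members with SPINK1 virus and 391 with IL-6 virus, a direction that choosing on NT arrays favours.

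Separation of single arrays was counted as well. Every JHOC9 array lay above every JHOC5 array for 526 members in the SPINK1 arrays and for 526 in the IL-6 arrays, where 17.4% and 20.2% of all clusters did so. Over all 11 arrays of each line, 524 members were separate, beside 7.22% of all clusters. Nothing is read from that last count, because the rule itself required the 5 NT arrays of each line to be separate. The gap between the lowest JHOC9 and the highest JHOC5 array had a median of 1.35, reached 5.71, and was at least 1 for 395 members. The 2 exceptions, singled out after their values were seen, were TC02002218.hg.1 and TC04002616.hg.1. For TC02002218.hg.1 the lowest JHOC9 value was 5.50 on SPINK1 array c, while JHOC5 IL-6 arrays a and c read 6.12 and 5.69. For TC04002616.hg.1, JHOC9 IL-6 array b and JHOC5 NT array c both read 4.51.

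**Figure D3:**
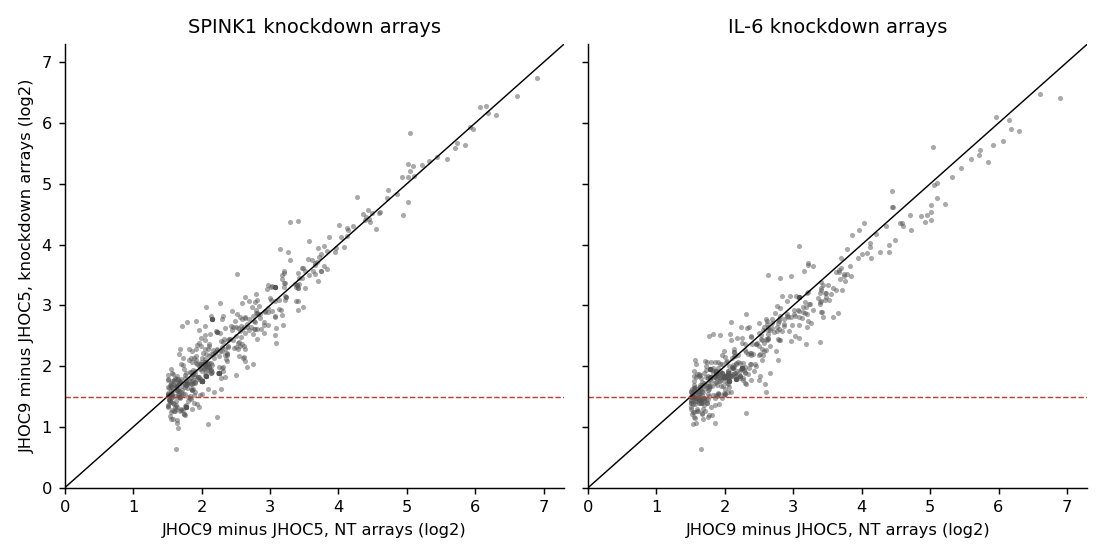
Difference between JHOC9 and JHOC5 (log2) of each member in the SPINK1 (left) and the IL-6 (right) knockdown arrays on the vertical axes, against the same difference in the NT arrays on the horizontal axes. The solid line marks equal differences and the dashed line the limit of 1.5, and the points follow the solid line, with 303 (SPINK1) and 391 (IL-6) of 526 below it.

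The member with the largest NT difference was TC05002693.hg.1. Its log2 signals on JHOC9 NT arrays a to e were 11.72, 11.56, 12.07, 11.67 and 12.06, and on the JHOC5 NT arrays 5.03, 4.90, 4.90, 4.73 and 5.01. The SPINK1 arrays read 11.98, 11.76 and 11.97 in JHOC9 (a, b, c) and 4.98, 5.29 and 5.21 in JHOC5 (c, d, e), and the IL-6 arrays 10.97, 11.82 and 11.84 in JHOC9 (b, d, e) and 5.15, 5.13 and 5.12 in JHOC5 (a, b, c). JHOC9 IL-6 array b was the lowest of its line but still lay far above every JHOC5 array. The difference was 6.74 ± 0.19 (SE, n = 3 and 3; limma adjusted p = 1.05e-10) in the SPINK1 arrays and 6.41 ± 0.19 (adjusted p = 1.7e-10) in the IL-6 arrays. TC12001181.hg.1 came next, at 10.97 ± 0.17 (SD, n = 5) in JHOC9 NT and 4.36 ± 0.22 in JHOC5 NT. Its difference was 6.44 ± 0.16 (limma adjusted p = 3.85e-11) and 6.48 ± 0.16 (4.72e-11) in the SPINK1 and IL-6 arrays. JHOC5 signals of both members lay near or under the array medians.

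At the other end were members whose line difference shrank in knockdown arrays. TC02002746.hg.1 read 6.60, 6.59, 6.18, 6.29 and 6.24 in JHOC9 NT and 4.44, 4.69, 4.92, 4.87 and 4.85 in JHOC5 NT. With SPINK1 virus it read 6.88, 6.48 and 6.18 in JHOC9 and 5.86, 6.11 and 5.66 in JHOC5. The groups came close without overlapping. The difference was 0.63 ± 0.20 (limma adjusted p = 0.0374), and the call was lost without JHOC9 SPINK1 array a or b or without JHOC5 SPINK1 array c or e, with adjusted p from 0.0816 to 0.163. It was also lost with centring (0.0579), cyclic loess (0.0855) and a block for letters common to both lines (0.247). In the IL-6 arrays its difference was 1.84 ± 0.20. TC12002239.hg.1 had the smallest difference in the IL-6 arrays, 0.64 ± 0.15 (limma adjusted p = 0.00671), with 5.17, 5.64 and 5.17 in JHOC9 and 4.77, 4.69 and 4.61 in JHOC5. Its difference in the SPINK1 arrays was 0.99 ± 0.15 (limma adjusted p = 0.000256). TC21001004.hg.1 was next in the IL-6 arrays, at 1.05 ± 0.19 (limma adjusted p = 0.0011).

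Both knockdown viruses were then compared with each other within each line, again without the NT arrays. In JHOC9, 7 of 526 members were called, 4 higher and 3 lower with SPINK1 virus (1.33%), where 0.09% of all clusters (0.0733% higher and 0.0168% lower) and 0.272% of those with a JHOC9 NT mean of at least 6, the bright clusters, were called. The median difference of members was 0.21 and that of all clusters -0.039, and 435 members were positive. Of the array shifts given above, SPINK1 array a was high and c low for most members, and IL-6 array b low and e high. These are deviations from group means, which cancel within a group. The part of single arrays in this median was not tested. The count rested on few arrays. It was 0 without SPINK1 array a (130 members at an unadjusted limma p under 0.05), 2 without SPINK1 array b, 3 without IL-6 array d and 1 without IL-6 array e, and it was 30 when the NT arrays entered the fit.

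TC02001750.hg.1 had the largest rise among these, with 8.28, 8.53 and 8.42 on the SPINK1 arrays and 7.62, 7.21 and 6.54 on the IL-6 arrays. The groups did not overlap, but its NT arrays ran from 6.85 to 8.29. The difference was 1.29 ± 0.20 (limma adjusted p = 0.0438), and the call was lost without any 1 SPINK1 array and without IL-6 array d or e, with adjusted p from 0.0503 to 0.222. A fit of these 6 arrays alone ended the calls of all 4 members named for this comparison, with adjusted p of 0.217 for both rises and 0.194 for both falls. TC07000113.hg.1 differed by 1.05 ± 0.13 (limma adjusted p = 0.0245), a call lost without SPINK1 array a (0.0734) or IL-6 array e (0.0797) and with the letter block (0.0787). On the lower side, TC16001861.hg.1 had 6.83, 6.96 and 6.79 with SPINK1 virus and 7.81, 7.67 and 7.69 with IL-6 virus. Its difference was -0.86 ± 0.12 (limma adjusted p = 0.0252), a call lost without any 1 of these 6 arrays, with adjusted p from 0.0501 to 0.157. TC19000416.hg.1 differed by -0.84 ± 0.10 (limma adjusted p = 0.0209), a call lost without SPINK1 array a (0.126) or IL-6 array e (0.0573).

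In JHOC5 the same comparison called 47 members, 29 higher and 18 lower with SPINK1 virus (8.94%). The share was 4.14% of all clusters (1.74% higher and 2.4% lower) and 9.86% of bright ones, so the members' share lay close to that of the bright clusters. Changes of at least 2-fold were seen in 17 of the 47. TC12001705.hg.1 had the largest rise, with 7.44, 7.55 and 7.84 on the SPINK1 arrays and 5.69, 5.83 and 5.96 on the IL-6 arrays, and NT arrays from 6.49 to 7.18. The NT arrays lay between both knockdown groups, with no overlap. The difference was 1.78 ± 0.12 (limma adjusted p = 1.51e-05). TC05002316.hg.1 rose by 1.70 ± 0.23 (limma adjusted p = 0.000981). TC07001611.hg.1 was lower with SPINK1 virus by -1.61 ± 0.21 (limma adjusted p = 0.000676).

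The largest difference of any member in this comparison was that of TC19000416.hg.1, which also fell against NT in both lines. In JHOC9 it read 10.22, 10.38, 10.28, 10.33 and 10.35 with NT virus, 9.32, 9.57 and 9.27 with SPINK1 virus and 10.25, 10.23 and 10.20 with IL-6 virus. In JHOC5 it read 7.95, 7.93, 8.21, 8.19 and 7.94 with NT virus, 6.39, 6.35 and 6.30 with SPINK1 virus and 8.31, 8.40 and 8.67 with IL-6 virus. All SPINK1 arrays lay below all other arrays of their line. Between the viruses in JHOC5 it differed by -2.11 ± 0.10 (limma adjusted p = 1.71e-06). Against NT, it fell by 0.93 ± 0.09 in JHOC9 (limma adjusted p = 1.61e-05) and by 1.70 ± 0.09 in JHOC5 (adjusted p = 1.13e-10).

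Each virus was also compared with NT in each line, in a fit of all 22 arrays. The NT arrays chose the members for high JHOC9 and low JHOC5 values, so chance in those arrays favours falls in JHOC9 and rises in JHOC5. The SPINK1 and IL-6 comparisons of a line share the same NT arrays. Over the 4 comparisons, 81 members (15.4%) were called in at least 1 and 445 in none, where 7.52% of all clusters and 17.2% of bright ones were called in at least 1. Calls in JHOC9 by either virus numbered 15 (2.85%), against 0.325% of all clusters and 0.872% of bright ones.

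**Figure D4:**
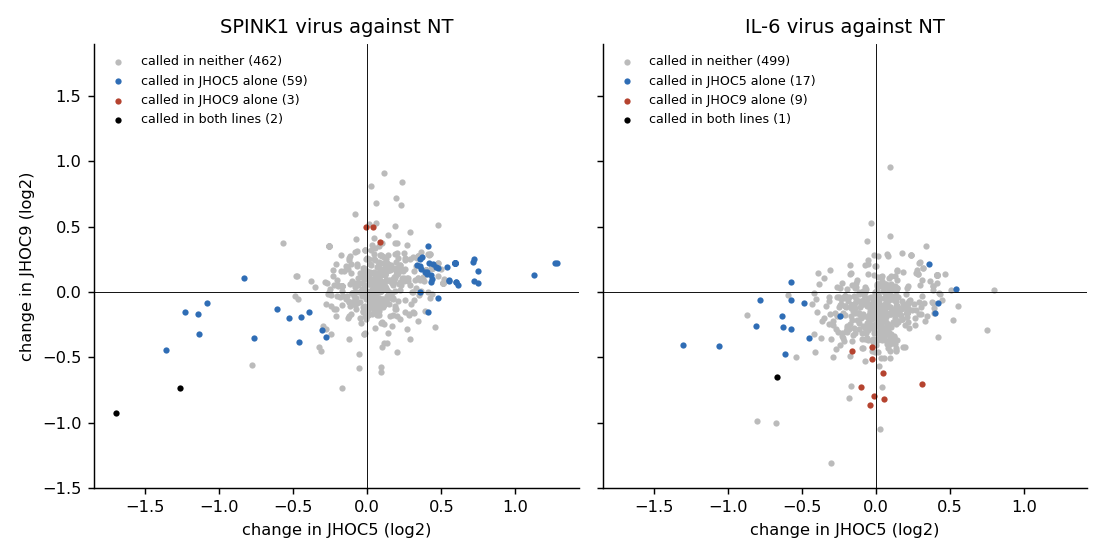
Change against NT (log2, difference of group means) of each member in JHOC5 (horizontal axes) and in JHOC9 (vertical axes), for SPINK1 virus (left) and IL-6 virus (right), coloured by where limma called it at an adjusted p under 0.05. Calls number 5 (SPINK1) and 10 (IL-6) in JHOC9 and 61 and 18 in JHOC5, and both axes of a panel share the NT arrays with the other panel.

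With SPINK1 virus in JHOC9, 5 members were called, 3 higher and 2 lower (0.951%), against 0.0839% of all clusters (0.0137% higher and 0.0702% lower) and 0.266% of bright ones. Deviations of same-lettered NT and SPINK1 arrays correlated at 0.203 to 0.432, so the letters may pair these arrays. The counts, SEs and p-values of the main fit did not use the letters. With the letter as a block 13 members were called, 3 higher and 10 lower. The count was 3 without NT array c, d or e and 2 without SPINK1 array a or b. Both falls, TC19000416.hg.1 and TC12000076.hg.1, were called in JHOC5 too. TC12000076.hg.1 read 10.21, 10.29, 10.14, 10.14 and 10.49 with NT virus and 9.50, 9.60 and 9.45 with SPINK1 virus in JHOC9. In JHOC5 it read 8.47, 8.59, 8.70, 8.53 and 8.64 with NT virus and 7.41, 7.17 and 7.37 with SPINK1 virus. SPINK1 arrays lay below all NT arrays in both lines, and the falls were 0.74 ± 0.09 (SE; limma adjusted p = 0.000268) and 1.27 ± 0.09 (adjusted p = 6.21e-09).

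The largest rises with SPINK1 virus in JHOC9 were smaller. TC15002759.hg.1 read 7.03, 7.10, 6.91, 6.78 and 6.91 with NT virus and 7.68, 7.48 and 7.18 with SPINK1 virus, a rise of 0.50 ± 0.09 (limma adjusted p = 0.0289). Its call was lost without NT array c, d or e or SPINK1 array a or b, with adjusted p from 0.057 to 0.289, and with the groups compared alone (0.391), centring (0.148) or cyclic loess (0.101). TC04001089.hg.1 rose by 0.50 ± 0.09 (limma adjusted p = 0.0485) and lost its call with the letter block (0.102), without any 1 NT array or without SPINK1 array a or b, with adjusted p from 0.0526 to 0.324 over these 7 arrays left out. The groups compared alone (0.317), centring (0.228), cyclic loess (0.125) and eBayes with trend (0.054) ended it too. In JHOC5 their changes were 0.04 ± 0.09 and -0.01 ± 0.09, neither of them called, and the difference between lines did not pass the test for either (limma adjusted p = 0.0874 and 0.0806).

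With SPINK1 virus in JHOC5, 61 members were called, 45 higher and 16 lower (11.6%), against 6.54% of all clusters (2.68% higher and 3.86% lower) and 14.9% of bright ones. Counting repeats once, 49 remained, 33 higher and 16 lower. The count was 33 without SPINK1 array e, 22 higher and 11 lower. Changes reached 2-fold in 10 members, 3 up and 7 down. The 12 clusters of the code 19 family were among the rises: TC19000688.hg.1 read 8.14, 7.65, 7.99, 7.82 and 8.12 with NT virus and 8.30, 8.38 and 8.92 with SPINK1 virus, a change of 0.59 ± 0.15 (limma adjusted p = 0.0162). A pair of clusters under the same code rose by 0.60 ± 0.11 (limma adjusted p = 0.00165). These are 2 measurements, not 14.

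TC05002316.hg.1 and TC05000125.hg.1 rose most in JHOC5. TC05002316.hg.1 read 5.71, 6.16, 6.32, 6.39 and 6.19 with NT virus and 7.47, 7.45 and 7.38 with SPINK1 virus, a rise of 1.28 ± 0.20 (limma adjusted p = 0.000191). TC05000125.hg.1 read 5.54, 6.01, 6.06, 6.06 and 5.97 with NT virus and 7.21, 7.17 and 7.20 with SPINK1 virus, a rise of 1.27 ± 0.16 (limma adjusted p = 1.82e-05). In both, every SPINK1 array lay above every NT array. Beside TC19000416.hg.1, the largest fall was that of TC04002940.hg.1, from 6.82, 7.06, 7.13, 6.86 and 6.47 to 5.79, 5.50 and 5.24, or 1.36 ± 0.14 (limma adjusted p = 7.16e-07). Of the 45 members that rose in JHOC5, 43 had a positive change in JHOC9, or 31 of 33 counting repeats once, with a median of 0.16 over the 33. Over all 526 members, 349 had a positive change in JHOC9 and the median was 0.08. Of the 16 that fell in JHOC5, 15 had a negative change in JHOC9, beside 177 of all members.

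With IL-6 virus in JHOC9, 10 members were called, all lower (1.9%), against 0.243% of all clusters, or 0.201% lower, and 0.611% of bright ones. The median change of members was -0.12, and 418 were negative. Arrays that stood apart from their group mean lay on both sides. NT array d had 456 members below it and NT array a 370 above. IL-6 array b had 357 below and IL-6 array e 344 above. The part of single arrays in the median change was not tested. The count was 3 without NT array a, 4 without b, 5 without c, 19 without d and 6 without e. Without IL-6 array b or e it was 0, with 96 and 144 members at an unadjusted limma p under 0.05.

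TC07000113.hg.1 fell most in JHOC9 with IL-6 virus. It read 6.70, 6.28, 6.75, 5.95 and 6.58 with NT virus, 6.93, 6.43 and 6.55 with SPINK1 virus and 5.39, 5.80 and 5.58 with IL-6 virus. Every IL-6 array lay below every NT and SPINK1 array. The fall was 0.87 ± 0.14 (limma adjusted p = 0.0117), and the call was lost without IL-6 array b (0.0812) or e (0.0832) and in a fit of the NT and IL-6 arrays alone (0.236). In JHOC5 its signals lay between 3.07 and 3.42 on all arrays, under the array medians. TC12001277.hg.1 fell by 0.82 ± 0.16 (limma adjusted p = 0.0319), a call lost without NT array a, b, c or e or without IL-6 array b or e, with adjusted p from 0.0571 to 0.197, and with the groups compared alone (0.188), centring (0.0564) or cyclic loess (0.0761).

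With IL-6 virus in JHOC5, 18 members were called, 4 higher and 14 lower (3.42%), against 1.39% of all clusters (0.435% higher and 0.954% lower) and 3.3% of bright ones. The count was 9 without IL-6 array a, 4 higher and 5 lower, and 9 without array c, 2 higher and 7 lower. TC12002256.hg.1 fell most, from 8.27, 8.35, 8.69, 8.89 and 8.88 with NT virus to 7.14, 7.50 and 7.29. The groups did not overlap, and the fall was 1.30 ± 0.14 (limma adjusted p = 1.88e-05). In JHOC9 its change was -0.40 ± 0.14 (adjusted p = 0.305). The difference between these effects in the lines, 0.90 ± 0.20, was not called (limma adjusted p = 0.207). TC12001705.hg.1 fell by 1.06 ± 0.13 in JHOC5 (limma adjusted p = 5.32e-05) and rose there by 0.72 ± 0.13 with SPINK1 virus (adjusted p = 0.000762). The largest rises were TC17002083.hg.1, by 0.54 ± 0.10 (limma adjusted p = 0.00403), and TC19000416.hg.1, by 0.42 ± 0.09 (adjusted p = 0.0127), whose call was lost without IL-6 array c (0.12), with centring (0.0831) and with the groups compared alone (0.136). TC04000178.hg.1 was the 1 member called lower with IL-6 virus in both lines and was singled out for that. It fell by 0.65 ± 0.11 in JHOC9 (limma adjusted p = 0.0115) and by 0.67 ± 0.11 in JHOC5 (adjusted p = 0.00158). No member was called in JHOC9 without IL-6 array b or e or with the compared groups alone, so its JHOC9 call was lost there.

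**Figure D5:**
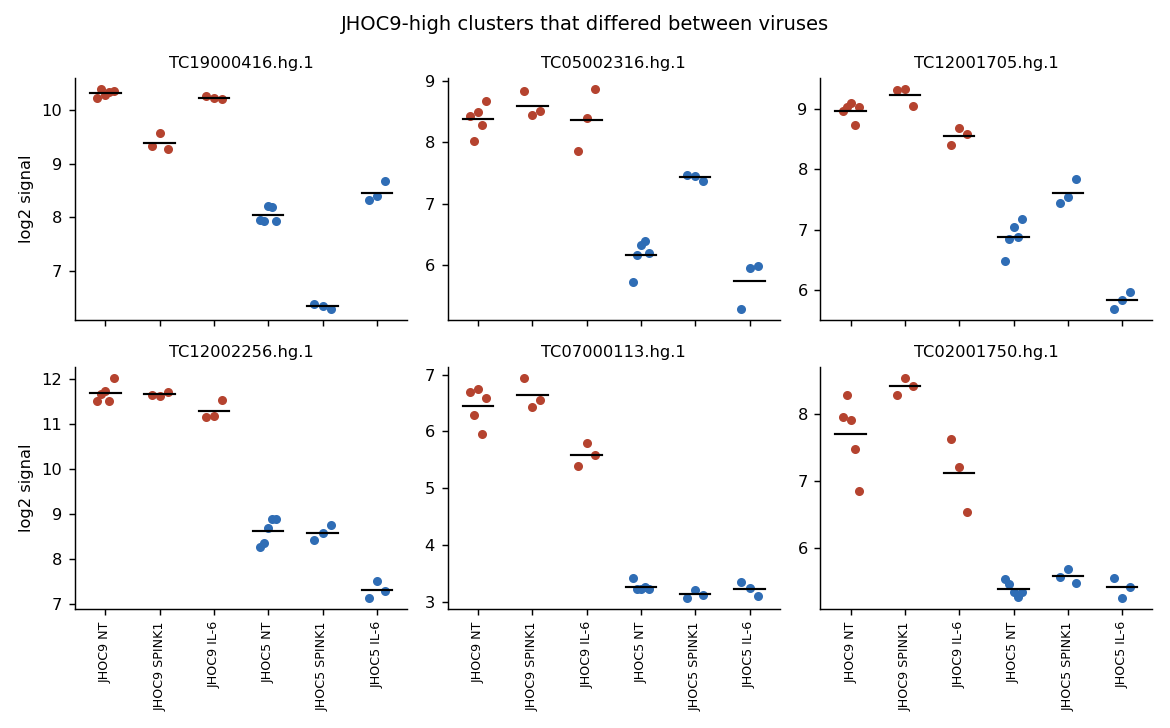
Log2 signal (vertical axes) of 6 named members on every array (points) of the 6 groups (horizontal axes), with the group mean as a line, JHOC9 in red and JHOC5 in blue. TC19000416.hg.1 is lower with SPINK1 virus in both lines, TC12002256.hg.1 is lower with IL-6 virus in JHOC5, and TC07000113.hg.1 is lower with IL-6 virus in JHOC9. No member was called for a difference of the IL-6 effects between the lines.

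Whether a virus acted differently in the lines was tested as the difference of its effects, JHOC9 minus JHOC5. For SPINK1 virus 10 members differed, 7 higher and 3 lower (1.9%), against 1.24% of all clusters (1.03% higher and 0.214% lower) and 2.95% of bright ones. The count was 6 without JHOC9 SPINK1 array a, 4 without JHOC9 SPINK1 array b and 5 without JHOC5 SPINK1 array d or e. TC12000189.hg.1 kept its call under every alternative run. It read 10.20, 10.21, 10.37, 9.86 and 10.54 with NT virus and 10.10, 10.16 and 10.20 with SPINK1 virus in JHOC9, but 7.71, 7.94, 7.72, 7.81 and 7.44 with NT virus and 6.59, 6.47 and 6.85 with SPINK1 virus in JHOC5. The groups overlapped in JHOC9 and were separate in JHOC5, with changes of -0.08 ± 0.12 and -1.09 ± 0.12 and a difference of 1.002 ± 0.17 (limma adjusted p = 0.0029). With IL-6 virus the same member fell in JHOC9, by 0.62 ± 0.12 (limma adjusted p = 0.0324), and changed by 0.05 ± 0.12 in JHOC5. The difference of these IL-6 effects, -0.67 ± 0.17, was not called (limma adjusted p = 0.318). The JHOC9 IL-6 call of this member was lost without IL-6 array b or e and with the compared groups alone, where no member was called.

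TC19000416.hg.1 fell in both lines but further in JHOC5, a difference of 0.77 ± 0.12 (limma adjusted p = 0.00145). TC07001611.hg.1 changed by -0.15 ± 0.18 in JHOC9 and -1.23 ± 0.18 in JHOC5, a difference of 1.08 ± 0.25 (limma adjusted p = 0.0337). That call was lost without any 1 of JHOC9 NT arrays c, d and e, JHOC9 SPINK1 arrays a and b, JHOC5 NT arrays a, c, d and e, and JHOC5 SPINK1 arrays d and e, with adjusted p from 0.0551 to 0.144, and with centring (0.054) or the groups compared alone (0.0588). TC05000125.hg.1 differed the other way, with changes of 0.23 ± 0.16 and 1.27 ± 0.16 and a difference of -1.04 ± 0.23 (limma adjusted p = 0.0232), a call lost without JHOC9 SPINK1 array b or c or JHOC5 SPINK1 array d or e, with adjusted p from 0.0612 to 0.0899, and with centring (0.0669) or cyclic loess (0.0612). TC02002746.hg.1 changed by 0.13 ± 0.16 in JHOC9 and 1.13 ± 0.16 in JHOC5, a difference of -0.996 ± 0.23 (limma adjusted p = 0.0337). Its call was lost without any 1 of NT arrays a and b of either line, JHOC9 SPINK1 arrays b and c, and JHOC5 SPINK1 arrays c and d, with adjusted p from 0.0517 to 0.148, and with centring (0.11) or cyclic loess (0.166).

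For IL-6 virus no member differed between the lines by limma at an adjusted p under 0.05, where 2 of 65526 clusters (0.00305%) did. At an unadjusted p under 0.05 there were 90 members. The median difference of the effects was -0.17, and 391 members were negative, the direction that choosing on the NT arrays favours. Without JHOC9 IL-6 array d the count was 1.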

How the data were processed

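Per the labels, 200 ng of RNA per sample went onto the GeneChip Human Transcriptome Array 2.0. The submitters' processing notes name RMA without a version. Its software, annotation and genome build were not given in the sources used here. Deposited intensity values, called raw in the file headers, are linear but already summarised per cluster and close in distribution across arrays. The deposited log2 values are, within 2.06e-06, the log2 of those intensities minus each cluster's median across all arrays. RMA brings arrays to a common distribution, so an overall change in RNA content would not show.

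Levels are log2 of the deposited intensities, in Python 3.11.15 with pandas 2.3.3 and numpy 2.4.6. Tests used limma 3.58.1 (lmFit, eBayes) in R 4.3.3, two-sided, with Benjamini-Hochberg adjustment at 0.05 over all 65526 clusters. Line differences and SPINK1 against IL-6 were fitted on the 12 knockdown arrays (8 residual degrees of freedom), all others on the 22 arrays (16). The members, lists and tests were chosen with earlier results of these data known. Named members have the largest NT difference, lie nearest a limit, have the smallest line difference, or have the largest called change in each direction, 2 for each, skipping repeats. Figures were drawn with matplotlib 3.10.9. The models were tested on simulated data.

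Bright clusters are those with a JHOC9 NT mean of at least 6. Same-lettered SPINK1 and NT arrays of JHOC9 correlated at 0.432, 0.322 and 0.203 in their deviations from group means, all above 0.1. The letters may therefore pair them, although SPINK1 array c correlated at 0.435 with NT array d. The main fits had no term for the letters, and pairing entered only as the letter block among the alternatives. In each of the other comparisons with NT, 1 same-lettered pair lay under 0.1. It stood at -0.042 for IL-6 in JHOC9, 0.064 for SPINK1 in JHOC5 and -0.002 for IL-6 in JHOC5. The remaining same-lettered pairs of these comparisons correlated at 0.267 to 0.524, so pairing by letter is not settled there. Alternatives covered the arrays in the fit, a letter block, centring, cyclic loess, array weights, eBayes with trend, a filter on dim clusters, the deposited log2 values and each array left out.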

Additional observations from a re-analysis of the deposited data

Results flagged for a closer look

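For the named members, groups of 5 NT arrays were searched for 1 array far from the other 4. Of 60 groups, 3 held one, and chance gives about 1 in 20. JHOC5 NT array a read 3.42 for TC07000113.hg.1, above the other arrays, and 5.54 for TC05000125.hg.1, below them. JHOC5 NT array e read 4.46 for TC21001004.hg.1, below the others.

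The effect of SPINK1 virus differed between the lines for 10 members by limma (adjusted p under 0.05). Those with the largest called differences in each direction were TC07001611.hg.1 with 1.08, TC12000189.hg.1 with 1.002, TC05000125.hg.1 with -1.04 and TC02002746.hg.1 with -0.996. Members named for other comparisons and also called here were TC04002940.hg.1 with 0.92, TC19000416.hg.1 with 0.77 and TC12000076.hg.1 with 0.53. Each value is the JHOC9 minus the JHOC5 effect on the log2 scale.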

How the results depend on the processing

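Line differences called 524 to 526 members under every alternative but 2 chosen after seeing the data. With repeats counted once, 464 were called. With the letter, shared by the lines, as a replicate block on the knockdown arrays 517 were called in the SPINK1 and 524 in the IL-6 arrays, although the groups compared share 1 letter. Other counts of called members moved more, and the cause was not tested. Calls over all clusters or bright ones were not counted under the alternatives. These counts therefore do not say whether members moved more than other clusters did. With the replicate block, 16 members were called for SPINK1 against IL-6 in JHOC9, 13 and 101 for SPINK1 against NT in JHOC9 and JHOC5, 19 and 43 for IL-6 against NT, 30 for the SPINK1 effect between lines and 2 for the IL-6 effect. Array weights gave JHOC9 SPINK1 array b a weight of 6.53 in the fit of the 12 knockdown arrays and 6.46 in that of all 22. The weighted fit of 12 called 148 and 73 for SPINK1 against IL-6 in JHOC9 and JHOC5. In the weighted fit of 22, 68 were called for SPINK1 in JHOC9 and 46 for IL-6 in JHOC5. There the SPINK1 and IL-6 effects between lines gave 52 and 14. Using the compared groups alone gave 0 for SPINK1 against IL-6 in JHOC9 (177 at an unadjusted limma p under 0.05), 2 for SPINK1 in JHOC9, 0 for IL-6 in JHOC9 (104 unadjusted) and 9 for IL-6 in JHOC5. All 22 arrays gave 30 for SPINK1 against IL-6 in JHOC9, 25 higher and 5 lower. Centring gave 2 for SPINK1 in JHOC9, 11 for IL-6 in JHOC5 and 6 for the SPINK1 effect, and cyclic loess 3 for SPINK1 in JHOC9. By direction, centring gave 0 higher and 2 lower, 1 and 10, and 5 and 1 in that order, and loess 1 and 2.

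Leaving out each array gave 0 to 9 for SPINK1 against IL-6 in JHOC9, 2 to 7 and 33 to 59 for SPINK1 against NT in JHOC9 and JHOC5, 0 to 19 and 9 to 18 for IL-6 against NT, 4 to 15 for the SPINK1 effect and 0 to 1 for the IL-6 effect. Of the 594 values of named members under alternatives, 91 lost their call and 0 reversed. Low signals limit members near the array medians in JHOC5.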
